A study of Mus musculus with 2 samples.

Results

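Transcripts of 10 genes from chloride channel families were followed in G1E cells: the anoctamins Ano1, Ano6, Ano8 and Ano10, the ClC genes Clcn3, Clcn5, Clcn6 and Clcn7, and the CLIC genes Clic1 and Clic4. The set was chosen by the Ano1 ratio between these arrays, since Ano1 was already known to be among the genes with the largest increase, so that ratio is described here and is no independent evidence. The other members are of the anoctamin, ClC and CLIC families, which were not taken whole. Ano3, Ano4, Ano9 and Clcn2, for example, were placed among the other chloride channel genes. The members comprised every probe set annotated to 1 of these genes alone, 24 of 45101 probe sets on the array and 10 of 18193 genes with such a probe set. No probe set was shared in the annotation between a member and another gene.

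G1E is a mouse erythroid progenitor line without GATA-1, and the cells carried ER-GATA-1(V205G), an estrogen receptor fusion of mutant GATA-1 with impaired binding to the cofactor FOG-1. The fusion is activated by estradiol, given at 1 µM for 24 h to the treated sample, and the other sample was the untreated control at 0 h. Both samples lacked the endogenous factor and carried the fusion; what drives the transgene, and whether the line was 1 clone, are not given in the sources used here. There was 1 array per condition, so no difference reported here has a p-value or a replicate check, and effects of the activated mutant, of estradiol and of 24 h in culture cannot be told apart.

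Anoctamins are membrane proteins of which some are calcium-activated chloride channels and others calcium-dependent scramblases, which move phospholipids between the leaflets of the membrane. The ClC proteins studied here sit mainly in endosomes and lysosomes, where they exchange chloride for protons while the V-ATPase pumps protons into the compartment. CLIC proteins exist in a soluble form with a fold like glutathione transferases, and their role as channels is debated. In red cells most chloride crosses the membrane through band 3, the anion exchanger.

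Values are linear signals per probe set, scaled to the same trimmed mean on both arrays. A probe set was called measured where both arrays reached a signal of 95.2, the 50th percentile of all signals. Where only 1 array did, the other was raised to this floor and the ratio is a bound. A gene took the ratio of its brightest probe set, as log2 of estradiol over untreated, and 2-fold was the size at which it was counted. The error set beside a ratio was the pooled within-gene SD of log2 ratios, 0.25 from 12514 probe sets (4586 genes). By tertile of gene signal this SD was 0.32 (lowest), 0.27 (middle) and 0.21 (highest). This SD covers probes, not cultures. On the estradiol and the untreated array, 50.9% and 49.2% of probe sets reached the floor. Signals spanned 0.1 to 17883.8 on the estradiol array and 0.1 to 18099.6 on the untreated array.

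The sequences before the annotated starts are shown first, because the treatment activates a DNA-binding factor and the members can be compared at this level. They are the 250 bases upstream of a RefSeq start, 5′ to 3′ on the gene's strand, in GRCm38.p6. Ano1 and Ano6 are the members past 2-fold, Clcn3, shown at the upstream of its annotated starts, had the most probe sets, and Clcn6 and Clcn7 are the members with CACGTG. Capitals mark the GATA hexamers (GATA with an A or T before it and an A or G after it), the E-box CACGTG, and CACCC, the core of sites bound by Kruppel-like factors, each on either strand. CACGTG and CACCC were added to the search after the sequences had been seen.
Ano1, chr7:144738574-144738823, minus strand: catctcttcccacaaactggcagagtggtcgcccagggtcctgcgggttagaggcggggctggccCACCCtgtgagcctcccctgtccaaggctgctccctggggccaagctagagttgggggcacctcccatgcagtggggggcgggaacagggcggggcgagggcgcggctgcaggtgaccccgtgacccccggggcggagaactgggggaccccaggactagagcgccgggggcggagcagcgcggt
Ano6, chr15:95790593-95790842, plus strand: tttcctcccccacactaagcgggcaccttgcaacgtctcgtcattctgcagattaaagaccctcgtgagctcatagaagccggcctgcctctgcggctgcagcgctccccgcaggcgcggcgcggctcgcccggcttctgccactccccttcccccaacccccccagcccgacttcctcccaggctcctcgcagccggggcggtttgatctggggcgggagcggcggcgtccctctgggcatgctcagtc
Clcn3, chr8:60983312-60983561, minus strand: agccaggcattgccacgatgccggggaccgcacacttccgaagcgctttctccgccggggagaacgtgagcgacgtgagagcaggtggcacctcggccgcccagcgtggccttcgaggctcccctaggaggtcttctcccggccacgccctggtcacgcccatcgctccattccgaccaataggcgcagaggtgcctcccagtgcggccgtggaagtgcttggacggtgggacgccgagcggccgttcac
Clcn6, chr4:148038814-148039063, minus strand: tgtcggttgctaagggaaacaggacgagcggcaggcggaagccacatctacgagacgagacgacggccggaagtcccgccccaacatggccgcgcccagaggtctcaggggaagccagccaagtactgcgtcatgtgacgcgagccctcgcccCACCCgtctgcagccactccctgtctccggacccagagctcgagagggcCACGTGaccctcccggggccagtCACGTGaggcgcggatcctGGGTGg
Clcn7, chr17:25133141-25133390, plus strand: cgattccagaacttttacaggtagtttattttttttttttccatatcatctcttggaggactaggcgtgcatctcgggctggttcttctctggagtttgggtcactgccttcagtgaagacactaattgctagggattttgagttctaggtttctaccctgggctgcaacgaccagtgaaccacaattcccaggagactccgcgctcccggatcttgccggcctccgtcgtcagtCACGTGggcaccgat

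RefSeq gave 12 such upstream windows for 9 of the 10 members, and Ano8 had none in the table. A GATA hexamer was found in 1 of the 12 windows, that of a further Clcn7 start, where it began at position -87 and overlapped a CACCC. Of 32851 windows of the same length in the table, 26.5% held a GATA hexamer. The windows of Ano1 and Ano6 held none of the 4 hexamers, which says only that these letters are not within this distance of these starts. Ano1 had 1 CACCC, at position -185, a motif present in 52.0% of all windows. CACGTG was present in 2 of the 12 windows and in 6.02% of all windows. Clcn6 carried it at positions -48 and -25, and Clcn7 at position -15. The GC content of the member windows ranged from 39.2% to 73.2%, with 72.0% for Ano1 and 68.4% for Ano6, against a median of 52.4% over all windows.

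Of the 10 members, 8 were measured on both arrays, 1 (Ano10) reached the floor on the untreated array only, and 1 (Ano8) was below it on both. Ano1 was the member at least 2-fold higher after estradiol and Ano6 the member at least 2-fold lower. The shares past 2-fold over all 10240 measured genes were 2.04% higher and 1.10% lower. Ano1 had been chosen for its ratio, so nothing is read from its count against the first share. The median log2 ratio of the 8 measured members was 0.04, beside 0.00 over all measured genes. At 1.5-fold the counts of members were again 1 higher and 1 lower, where 7.11% and 4.85% of all measured genes were higher and lower by that much. At the level of probe sets, 19 of the 24 were measured and 13 of these differed by less than 1.5-fold, with several probe sets counted for some genes. By gene, 6 of the 8 measured members differed by less than 1.5-fold, as did 88.0% of all measured genes.

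Ano1, which encodes the calcium-activated chloride channel TMEM16A, was 5.32-fold higher after estradiol. Its brighter probe set, 1459713_s_at, read 733.1 on the estradiol array and 137.7 on the untreated array, a log2 ratio of 2.41. The other, 1426571_at, read 341.2 with estradiol and 93.9 without. The untreated signal of that probe set lay just under the floor, so its ratio is a bound of at least 3.58-fold, or 1.84 on the log2 scale. The suffix of the brighter one marks probes shared by several transcripts in the array's design, while the other carries no such mark. In bulk RNA a larger share of cells with a transcript and more of it per cell cannot be told apart.

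By ratio, Ano1 had rank 8 from the top among 10240 measured genes. The genes ranked next to it were Il4, an interleukin gene, and Pdia2, a protein disulfide isomerase gene, above it, and Fam234a and Lgmn, a lysosomal protease gene, below it. Their log2 ratios of 2.63, 2.58, 2.34 and 2.27 lay within 0.22 of that of Ano1, less than 1 SD between probe sets, so the order among these genes is not resolved. Likeness here means a similar ratio between 2 arrays and nothing more. The chromosomal neighbours of Ano1 did not share its ratio. In RefSeq order on chromosome 7, Fadd, the gene of a death receptor adaptor, had a log2 ratio of -0.18, Ppfia1 0.28 and Cttn, the cortactin gene, 0.08. On the other side Fgf3 was below the floor on both arrays and Fgf4 had a ratio of -0.06. Fgf15, a fibroblast growth factor gene with 1 probe set, read 694.6 with estradiol and 1413.2 untreated, a log2 ratio of -1.02.

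**Figure D1:**
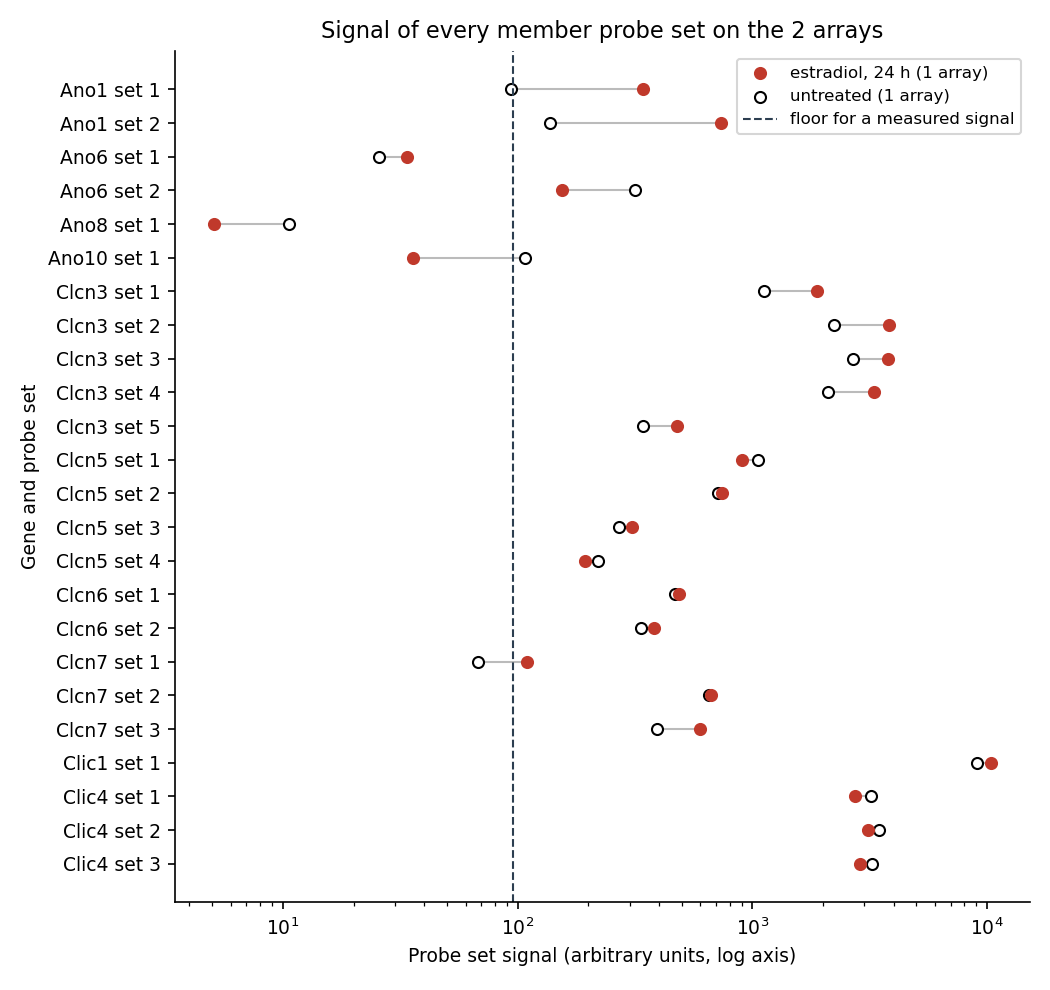
Signal of each of the 24 member probe sets (log axis, arbitrary units) on the estradiol array (filled) and the untreated array (open), with the floor of 95.2 as a dashed line; a row is a probe set, numbered within its gene in order of probe set ID. Ano1 has its filled points at 341.2 and 733.1, to the right of the open points at 93.9 and 137.7, and all 5 rows of Clcn3 also have the filled point to the right.

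Ano6 differed in the opposite direction from Ano1. It encodes TMEM16F, a scramblase that exposes phosphatidylserine on activated platelets. The probe set 1455309_at read 154.4 after estradiol and 317.1 untreated, 2.05-fold lower, a log2 ratio of -1.04 that is beyond 2 SD (0.63) for genes of the lowest tertile of signal. The other Ano6 probe set, 1455308_at, read 33.9 with estradiol and 25.8 untreated, below the floor on both arrays, and gave no ratio. The Ano6 difference thus rests on 1 probe set, just past 2-fold. With 16 added to each signal in place of a floor its log2 ratio was -0.97, short of 2-fold.

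The remaining anoctamins were dim. Ano10, a gene mutated in a recessive cerebellar ataxia in humans, read 35.9 after estradiol and 107.3 untreated. The estradiol signal was below the floor, which left a bound of at least 1.13-fold lower, a log2 ratio of -0.17. Its size depends on where the floor is set: at the 30th percentile, a signal of 31.7, Ano10 counted as measured with a log2 ratio of -1.58, and with 16 added it had -1.25. Ano8, whose product lies where the endoplasmic reticulum meets the plasma membrane, read 5.1 with estradiol and 10.6 untreated, so nothing can be said of a difference at these signals. Of the anoctamins outside the member set, Ano3 had a log2 ratio of -0.64 on its brightest probe set, with signals of 148.4 and 230.8 on the estradiol and untreated arrays, and 0.16 on its other one. Ano4 and Ano9 were below the floor on both arrays.

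Clcn3, which encodes the endosomal exchanger ClC-3, was higher on all 5 of its probe sets, each by less than 2-fold. The brightest, 1433487_at, read 3789.3 after estradiol and 2688.1 untreated, and 1433486_at read 3805.5 and 2224.7 on the same arrays. Signals of 3287.9 with estradiol and 2103.3 untreated were read by 1438366_x_at, and 1891.1 and 1116.5 by 1416610_a_at. The dimmest, 1441248_at, read 476.1 with estradiol and 340.9 untreated. The log2 ratios ran from 0.48 to 0.77 with a median of 0.64, which is 1.40-fold to 1.71-fold higher. All 5 exceed 2 SD (0.41) for genes of the highest tertile, the one into which Clcn3 falls, while 0.48 and 0.50, the value of the brightest probe set, lie within 2 SD over all genes (0.50). Of 327 genes with at least 5 measured probe sets, 8 (2.45%), Clcn3 included, had every one at or above 0.48, and 61 had every one above 0. This comparison was chosen after the Clcn3 values had been seen, and its lower limit is the Clcn3 value itself. Genes with more than 5 measured probe sets had to pass on more of them than Clcn3 did. Under the 8 settings of scaling and floor that were run, the lowest of the 5 ratios was never under 0.37, the value with a common median, where the brightest probe set was at 0.38; both are under the limit of 0.41.

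The probe sets of Clcn7 gave unlike ratios. It encodes ClC-7, the lysosomal exchanger that works with the subunit encoded by Ostm1. Its brightest probe set, 1450408_at, read 666.9 after estradiol and 656.5 untreated, a log2 ratio of 0.02. In contrast 1452702_at read 600.9 and 393.7 on these arrays, a log2 ratio of 0.61 and 1.53-fold higher. A further one, 1425821_at, read 109.6 with estradiol and 68.1 untreated, a value below the floor, for a bound of 0.20. The ratio taken for Clcn7 therefore depends on the probe set. Ostm1 read 1394.4 with estradiol and 992.7 untreated on its only probe set, a log2 ratio of 0.49.

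The other ClC members differed little. Clcn5 encodes ClC-5, an exchanger of early endosomes whose loss causes Dent disease in humans. Its brightest probe set read 904.1 after estradiol and 1059.8 untreated, a log2 ratio of -0.23, and carries the mark for probes that may cross-hybridise. Over all 4 of its probe sets the ratios ran from -0.23 to 0.18, on both sides of 0 and within 2 SD. Clcn6, the gene of the late endosomal exchanger ClC-6, read 487.6 with estradiol and 468.5 untreated on the brightest probe set, and 379.6 and 336.9 on the other. Its log2 ratios of 0.06 and 0.17 were within 2 SD as well. With a common median as the scaling the ratios of Clcn6 and Clcn7 turned to -0.05 and -0.09, so no direction is given for either.

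Clic1 and Clic4 were bright and nearly level. Clic1, whose product occurs in soluble and membrane-bound forms, read 10380.8 after estradiol and 9037.2 untreated, a log2 ratio of 0.20. Clic4, whose product moves between cytoplasm and nucleus, had 3 probe sets that read 2746.3, 3113.3 and 2866.1 with estradiol, against 3198.8, 3467.1 and 3222.5 untreated. These are log2 ratios of -0.22, -0.16 and -0.17, close to each other and within 2 SD (0.41) of 0. In the highest tertile this limit corresponds to 1.33-fold, and differences smaller than that could not be told from the spread between probe sets.

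**Figure D2:**
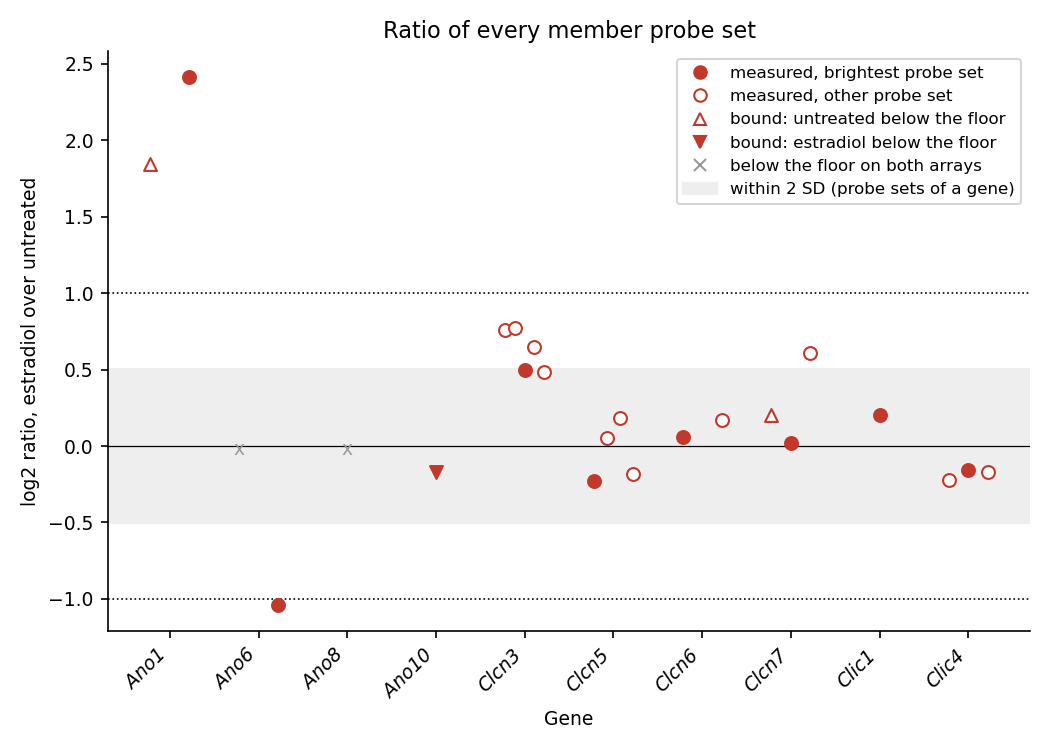
Log2 ratio of estradiol over untreated for each member probe set, by gene; filled symbols are the brightest probe set of a gene, triangles are bounds, crosses had both signals below the floor, the band is 2 SD between probe sets of a gene (0.50) and dotted lines mark 2-fold. Ano1 stands at 2.41 and a bound of 1.84, Ano6 at -1.04, the 5 Clcn3 points between 0.48 and 0.77, and the CLIC genes inside the band.

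The other chloride channel genes held 1 more gene past 2-fold. Of 28 such genes on the array 11 were measured, 2 had a bound and 15 were below the floor on both arrays. Clcn2, the gene of a plasma membrane chloride channel opened by hyperpolarisation, read 1047.7 after estradiol and 351.5 untreated on its only probe set, 2.98-fold higher. None of the 11 was at least 2-fold lower. For all measured genes the shares past that size were 2.04% up and 1.10% down. The 2 genes with a bound were lower after estradiol. Ttyh3 read 69.3 with estradiol and 162.8 untreated, a bound of -0.77 on the log2 scale. Clca4a read 62.3 and 143.4 on these arrays, a bound of -0.59. With the floor at the 30th percentile, 2 genes of this list counted as lower by 2-fold or more. The list median was 0.13, with 8 genes above 0, beside 50.1% of all measured genes above 0. After Clcn2 the highest was Pacc1, which encodes a proton-activated chloride channel, at 0.69 on the brightest probe set. Its signals there, 174.9 with estradiol and 108.3 untreated, were close to the floor. Other Pacc1 probe sets ran from 0.23 to 0.49, and Ostm1 came next. Among the measured genes, Clcc1 at -0.25 and Clns1a at -0.08 stood below 0 besides Ano3. Cftr, the cystic fibrosis channel gene, was below the floor on both arrays, as were the bestrophin genes Best1 and Best2.

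Subunits of the V-ATPase, the pump that acts beside the endosomal exchangers, lay mostly above 0. Of 23 such genes on the array 17 were measured, 15 of them above 0 and 2 at least 2-fold higher, with a median log2 ratio of 0.34. Over all measured genes 50.1% were above 0 and 2.04% at least 2-fold higher. Atp6v0b, which encodes a part of the proton-conducting ring, read 3574.7 after estradiol and 1767.9 untreated, a log2 ratio of 1.02, with 0.75 and 1.04 on its other probe sets. Atp6v0a1 also had 1.02 on the brightest, with signals of 1319.5 and 650.5 on the estradiol and untreated arrays, but ran from -0.19 to 1.12 on others. Atp6v0e was at 0.71, and Tcirg1, an alternative form of the a subunit, and Atp6v0a2 were below 0 at -0.33 and -0.02. With a common median as the scaling, which moved the median of all measured genes to -0.11, the V-ATPase median was 0.23 with 14 of 17 above 0 and none past 2-fold. Over all 10 settings the list median ran from 0.23 to 0.34.

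Transporters that move chloride or other anions were listed together with kinase genes, of which Wnk1, Wnk4 and Oxsr1 were measured. This list had 1 gene at least 2-fold higher among 14 measured, where 2.04% of all measured genes were. This count was 2 with the median over measured probe sets and with the floor at the 30th percentile. It was 3 with no floor and 16 added, and 0 with the floor at the 70th percentile. A bound was left for 1 gene that was higher and 2 that were lower, none of them a bound of 2-fold. Slc12a4, the gene of the potassium-chloride cotransporter KCC1, which takes part in volume regulation of red cells, read 581.9 after estradiol and 232.5 untreated, 2.50-fold higher. The ratio was 0.89 on the log2 scale for Slc26a2, a sulfate transporter gene, and 0.86 for the band 3 gene Slc4a1, which had 1.21 on another probe set. The kinase gene Wnk4 was at -0.56, Slc26a1 at -0.36 with 0.17 on its other probe set, and Slc4a2 at -0.26. The median was -0.03, and it was above 0 under 3 of the 9 alternatives.

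Among genes of phospholipid transport, the setting in which Ano6 acts, Atp8a1 stood apart. Atp8a1, a flippase gene whose product returns phosphatidylserine to the inner leaflet, read 2514.2 after estradiol and 731.5 untreated, 3.44-fold higher, and its 4 other measured probe sets ran from 1.20 to 2.13 on the log2 scale. It was the 1 gene of 9 measured that was at least 2-fold higher, where 2.04% of all measured genes were. None of the 9 was at least 2-fold lower, beside 1.10% of all measured genes. With a common median 1 gene was lower by that much, and 1 was with no floor and 16 added. Plscr1, the phospholipid scramblase 1 gene, read 728.7 with estradiol and 1374.1 untreated, a log2 ratio of -0.92 with -0.91 on its other measured probe set. Xkr8, which encodes the scramblase of apoptotic cells, had -0.75 at signals of 102.6 and 172.4, close to the floor. Plscr3 was at -0.48 on the brightest probe set and 0.09 on the other, and Atp10d and Atp11b at 0.38 and 0.29. The list median was -0.12, with values from -0.24 to 0.07 over the settings.

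Genes of calcium release and entry act upstream of calcium-activated channels such as TMEM16A. Listed together with phospholipase C genes and calcium pump genes such as Atp2b1, they were close to genes in general. Of 14 measured genes 13 lay within 1.5-fold, as did 88.0% of all measured genes, and Itpr2, an IP3 receptor gene, was 2.23-fold higher with signals of 590.2 after estradiol and 264.7 untreated. The other measured probe sets of Itpr2 ran from 0.09 to 2.02. Stim1, the calcium sensor of the endoplasmic reticulum, was at 0.47 with 0.82 on its other probe set. Atp2a1 was at 0.56 on its only probe set, with signals of 145.1 after estradiol and 98.2 untreated, close to the floor. Atp2b1, a plasma membrane calcium pump gene, was at -0.54. Plcb2 and Plcg1, phospholipase C genes, were at -0.25 and -0.23, with 0.37 on another Plcg1 probe set. The median of 0.05 changed sign with a common median, quantile normalization or a floor at the 70th percentile.

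**Figure D3:**
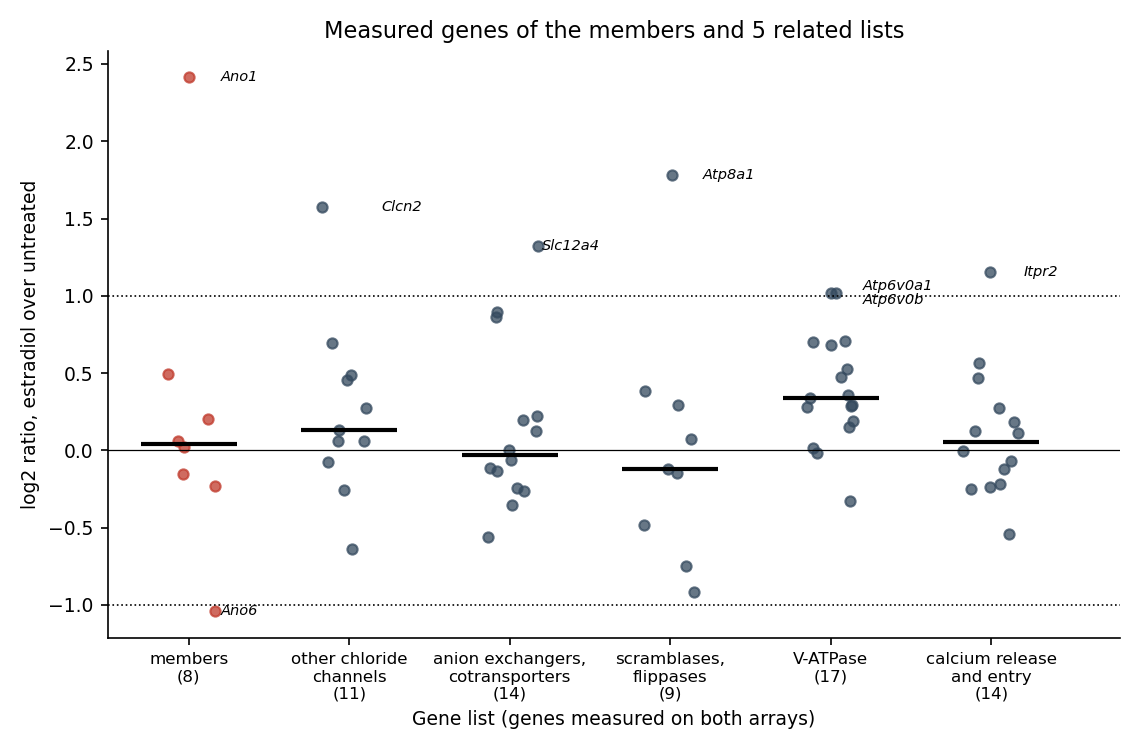
Log2 ratio of estradiol over untreated for the measured genes of the member set and 5 related lists, each point a gene at its brightest probe set, with the number measured in parentheses, black lines for list medians and dotted lines at 2-fold. The V-ATPase median of 0.34 is the highest of the 6, and the points named are the genes past 2-fold.

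Markers of erythroid progenitors, the cell type of the G1E line, were present on both arrays. All 11 erythroid progenitor markers reached the floor on each, with summed signals of 52150 after estradiol and 43280 untreated. Gata1, 1 of the 11, read 1190.8 after estradiol and 1263.8 untreated. The line lacks GATA-1 and carries the fusion, so the Gata1 signal is not a marker of cell type here. Of the 11, Alas2 (log2 ratio 3.60) and Zfpm1 (1.19) were past 2-fold, both higher. Alas2 read 3430.4 after estradiol and 283.5 untreated, which adds to the higher sum. Tal1 (-0.56) and Gata2 (-0.45) had the lowest ratios, and Kit (-0.16), Epor (-0.13) and Gata1 (-0.09) were also below 0. Of 10 mast cell markers 8 reached the floor with estradiol and 7 without, the sums were 6595 and 13655, and Mcpt4 was below it on both. These markers differed in both directions. Of the 6 measured, Tpsab1 (log2 ratio 4.61) was at least 2-fold higher. Gzmb (-3.11), Cpa3 (-2.53) and Ms4a2 (-1.40) were at least 2-fold lower. Over all measured genes 2.04% were higher and 1.10% lower by that much. The part of the erythroid and mast cell markers in the Ano1 and Ano6 values was not tested. Of 6 megakaryocyte markers 4 reached the floor on each array, with sums of 1299 and 1209 on the estradiol and untreated arrays, and Gp9 and Ppbp were below it on both. Of 7 neutrophil and monocyte markers and 6 lymphoid markers, 2 and 2 reached it with estradiol and 1 and 1 without. The neutrophil and monocyte sums were 661 and 498, and the lymphoid sums 432 and 380, on the estradiol and untreated arrays. Elane, Prtn3, S100a8, S100a9, Cd14, Cd3e, Cd3g, Cd79a and Cd2 were below the floor on both.

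**Figure D4:**
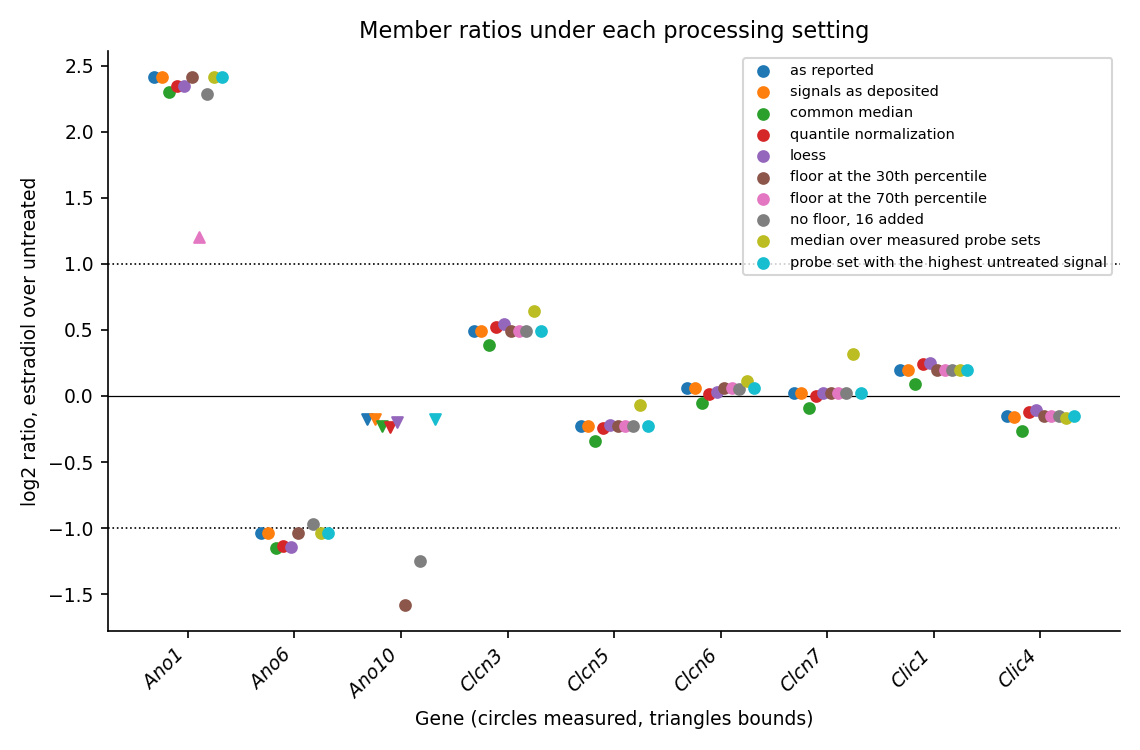
Log2 ratio of estradiol over untreated for the 9 members with a ratio (all but Ano8) under the reported processing and 9 alternatives (colours; circles are measured values, triangles bounds, dotted lines 2-fold). Ano1 stays above 2-fold throughout, as a bound of 1.20 with the floor at the 70th percentile, while Ano10 moves from a bound near 0 to -1.58 and -1.25 when the floor is lowered or left out.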

How the data were processed

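RNA of 2 samples, 1 after estradiol and 1 untreated, was measured on short-oligonucleotide arrays. The deposited intensity values are linear signals per probe set made by the authors with GCOS, per the submitters' processing notes, which name no version. Their 2% trimmed mean was 500.0 on both arrays. The platform annotation gave 1 symbol to 34945 of 45037 probe sets that were not controls, several to 932 and none to 9160; only the first were named, and all 10 member symbols were in the RefSeq table. Signals were rescaled to a common trimmed mean (factors 1.00006 for estradiol and 0.999941 for untreated). The floor and the ratio were applied to the whole table as described above. Alternatives covered scaling, floor, choice of probe set and the fold threshold. Named genes are the members, genes of the 5 lists past 2-fold, and up to 3 furthest from 0 in each direction. The neighbours of Ano1 in rank and on the chromosome are also named. Genes named as below the floor, Ttyh3, Clca4a, Wnk1, Oxsr1 and the named markers were added after their values were seen. The members and lists were chosen with earlier results of these data known. The number of arrays limits the precision. The steps were run on simulated data, with changes set only in genes well above the floor and noise drawn independently for each probe set. That run does not cover genes near the floor or differences between cultures. Tools were numpy 2.4.6, statsmodels 0.14.6, pandas 2.3.3 and matplotlib 3.10.9 under Python 3.11.15.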

Additional observations from a re-analysis of the deposited data

How the results depend on the processing

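Of 78 member ratios recomputed under alternatives, 74 moved by less than 1 SD between probe sets (0.25). Many of the 78 had little or no room to move. The deposited signals were nearly those used here, and the probe set with the highest untreated signal was the brightest for every member. A ratio that stays measured is the same at any floor. Members that lost their ratio under a setting, such as Ano6 with the floor at the 70th percentile, are not among the 78. With the floor at the 70th percentile, a signal of 318.9, 6 members were measured, Ano1 kept only a bound of 1.20, Ano6 was below it on both arrays, and 0 members counted as higher and 0 as lower. With the floor at the 30th percentile 2 members counted as lower, Ano6 and Ano10 (-1.58), and 2 other chloride channel genes. With no floor and 16 added, 1 member counted as lower, Ano10 (-1.25) in place of Ano6 (-0.97), and 3 other chloride channel genes did. At 3-fold 0 members were lower and 0 other chloride channel genes higher; at 1.5-fold 2 of the latter were higher and 1 lower. Clcn7 was at 0.32 as the median over its measured probe sets. No paired analysis was possible because each group held 1 array. Differences within the probe set SD could not be resolved.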
